A study of Arabidopsis thaliana with 12 samples.

Results

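Type-B response regulators are the transcription factors at the end of the cytokinin relay in Arabidopsis thaliana. Membrane histidine kinases sense the hormone and pass a phosphate through histidine phosphotransfer proteins to a receiver domain on the type-B protein, whose DNA-binding domain then switches on target genes. Among the targets are the type-A response regulators, which lack that DNA-binding domain and dampen the signal. In roots the type-B proteins ARR1, ARR10 and ARR12 carry much of the response, which includes slower cell division in the meristem and earlier differentiation.

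The mRNA levels of 7 type-B genes, chosen by locus, were followed: ARR1 (AT3G16857), ARR2 (AT4G16110), ARR10 (AT4G31920), ARR11 (AT1G67710), ARR12 (AT2G25180), ARR14 (AT2G01760) and ARR18 (AT5G58080). They are 7 of the 33602 genes in the deposited table, whose unit is RPKM (reads scaled by gene length and by the read total of the library). Whole roots of 10-day-old seedlings were sequenced in 4 groups of 3 libraries. The bpc BA group was the quintuple mutant labelled bpc1,2,3,4,6 after 1 h in 5 µM benzyladenine (BA, a synthetic cytokinin), the bpc vehicle group was that mutant after 1 h in 0.01% of 5 N NaOH, and the WT BA and WT vehicle groups were Col-0 wild type treated in the same 2 ways. The mutated genes encode BASIC PENTACYSTEINE (BPC) proteins, plant transcription factors that bind GA-rich DNA. Each library pooled the roots of 12 seedlings, the labels do not name the insertion alleles, and they do not say whether libraries of 1 group were grown apart. The p-values therefore measure the spread among these libraries alone, which may be technical. In whole-root RNA, fewer cells of a type and less RNA per cell cannot be told apart.

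The libraries held 9427912 to 13951019 reads, read from the smallest steps of the RPKM values. The genotype labels were checked on 5 BPC genes: with vehicle, BPC1, BPC2, BPC4 and BPC6 were lower in bpc by log2 differences of −4.18 to −0.50, and BPC3 was higher by 0.95. BPC4 still had 16.3 ± 1.68 RPKM in bpc vehicle, against 23.4 ± 2.88 RPKM in WT vehicle (mean ± SD). The mRNA levels of BPC3 and BPC4 therefore do not by themselves show a loss in the mutant. All 8 root markers fixed for the tissue check were kept by the filter on low values, and their summed level was 5811 to 6028 RPKM in bpc BA, 5583 to 6185 in bpc vehicle, 4562 to 5509 in WT BA and 4819 to 5313 in WT vehicle. PYK10, a root beta-glucosidase gene, held 91.4% to 94.8% of that sum in every library, and the other 7 summed to 305 to 323 RPKM in bpc BA, 352 to 363 in bpc vehicle, 303 to 374 in WT BA and 396 to 414 in WT vehicle. The 6 shoot markers summed to 35.7 to 49.9 RPKM in bpc BA, 33.4 to 55.5 in bpc vehicle, 31.9 to 45.9 in WT BA and 33.4 to 51.9 in WT vehicle. RBCS1A made up most of that sum, at 23.7 to 42.7 RPKM over all libraries. LHCB3 was at 2.33 to 8.02 RPKM and LHCB1.1 at 0 to 0.845 RPKM. Library 1 of WT BA stood apart, since its steps gave the same read total, 11653485, as WT vehicle library 2, and its length-weighted sum was 86.5% of the median library. The 2 vehicle libraries numbered 3 also deviated together from their group means (r = 0.63 across 20776 genes, which are not independent replicates). Calls of type-B genes that rest on these libraries are given with and without them, or as a range over all alternatives.

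The 7 genes fell into an abundant and a scarce set. With vehicle, ARR1 had the highest mean level, at 42.3 ± 10.2 RPKM in bpc and 41.7 ± 4.63 RPKM in WT (SD, n = 3 each, as for all means). ARR10 followed at 27.4 ± 1.36 RPKM in bpc vehicle and 28.5 ± 1.56 RPKM in WT vehicle. ARR2, at 17.9 ± 2.58 RPKM in bpc vehicle and 17.9 ± 1.89 in WT vehicle, and ARR12, at 16.8 ± 2.88 RPKM in bpc vehicle and 20.9 ± 4.53 in WT vehicle, overlapped in both genotypes. All other neighbours in the vehicle order were separate, with no library of the higher gene below any library of the lower one. These 4 genes held 92.7% of the summed level of the 7 in bpc vehicle and 94.5% in WT vehicle.

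ARR11 averaged 6.13 ± 0.308 RPKM in bpc vehicle and 4.46 ± 0.66 RPKM in WT vehicle, and ARR14 averaged 1.82 ± 0.343 RPKM in bpc vehicle and 1.51 ± 0.376 RPKM in WT vehicle. ARR18 was at 0.053 to 0.197 RPKM in the bpc vehicle libraries and 0.151 to 0.628 RPKM in the WT vehicle libraries. Its highest library held 12 reads and the others 1 to 5, so it did not reach 0.5 RPKM in 3 libraries, the filter used before testing. ARR18 is therefore described only by these levels, and tests cover the other 6 members. A further 3 type-B loci, ARR13 (AT2G27070), ARR19 (AT1G49190) and ARR20 (AT3G62670), were listed at 0 in all 12 libraries, and ARR21 (AT5G07210) was above 0 in 1 library, at 0.049 RPKM.

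**Figure D1:**
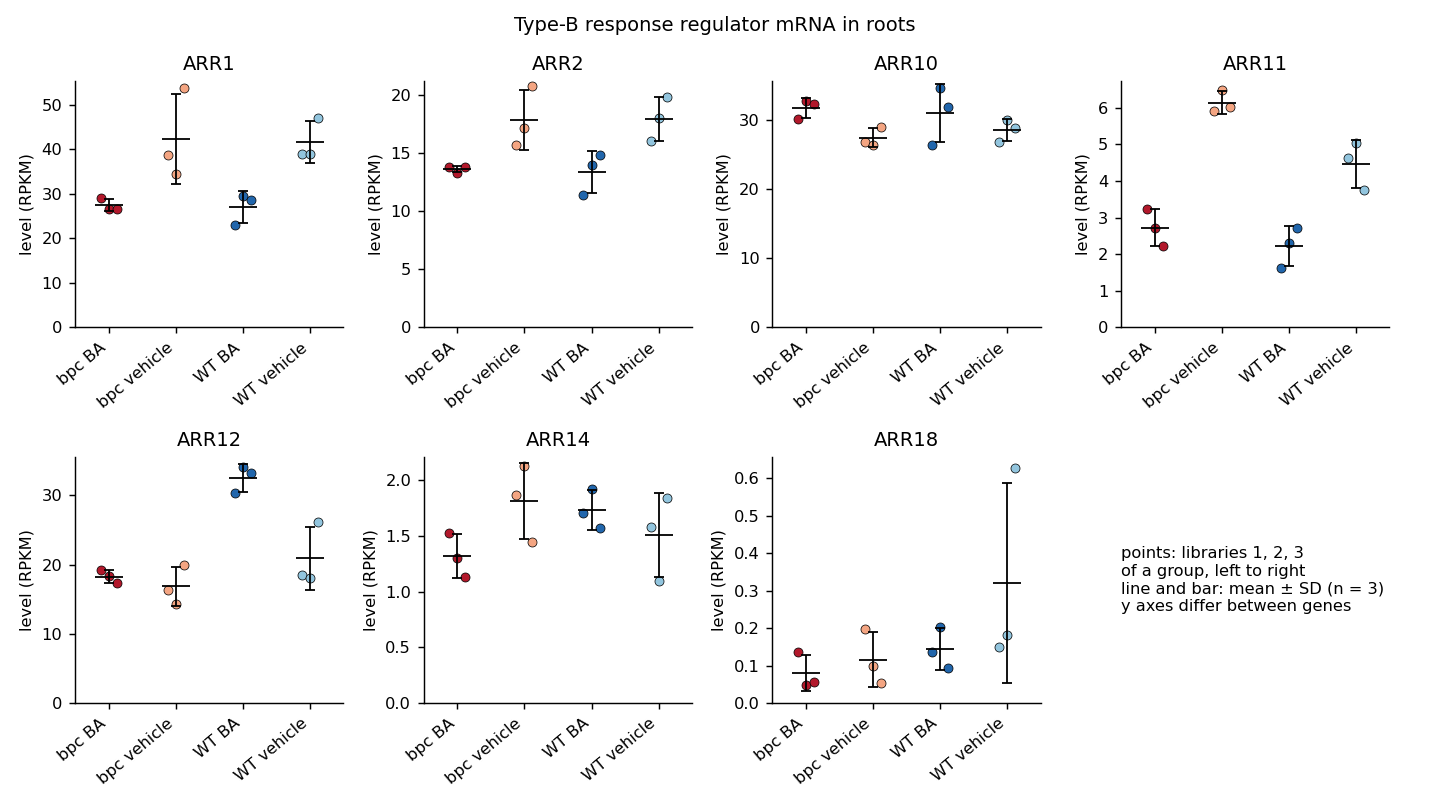
Level in RPKM (y axis, linear, own range per gene) of the 7 type-B genes in bpc BA, bpc vehicle, WT BA and WT vehicle roots, with points for libraries and lines and bars for mean ± SD (n = 3). ARR1, ARR2 and ARR11 sat lower with BA than with vehicle in both genotypes, and ARR12 was highest in the 3 WT BA libraries, at 30.3 to 34.1 RPKM.

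In WT roots, BA moved type-B mRNAs in both directions within 1 h. ARR12 rose, ARR1 and ARR11 fell, and ARR2, ARR10 and ARR14 did not pass the test. Differences were tested with limma on log2(RPKM + 0.5) across 20776 genes, with Benjamini-Hochberg adjustment over all of them, and are given as log2 ± SE. They understate changes of low genes. Of the 6 tested members 3 passed, 1 up and 2 down, where 8.68% of all tested genes passed, 3.85% up and 4.83% down. BA and vehicle libraries did not overlap for 4 of the 6, as for 20.9% of all tested genes. The split of the calls over all genes, 799 up and 1004 down, was 1027 up and 928 down with WT BA library 1 rescaled. The members' median log2 difference was −0.15, against −0.05 over all tested genes, and −0.08 against 0.02 with that library rescaled.

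ARR12, which acts with ARR1 and ARR10 in root growth and vascular development, had 30.3, 34.1 and 33.2 RPKM in WT BA, against 18.5, 18.1 and 26.1 RPKM in WT vehicle. Every BA library was above every vehicle library, and vehicle library 3 was the highest of its group. The rise was 0.64 ± 0.15 (adjusted p = 0.0152), or 1.56-fold. It rested on 698 to 876 reads per library with BA and 417 to 520 with vehicle. Without the vehicle libraries numbered 3 it was 0.81 (adjusted p = 0.00015), and with WT BA library 1 rescaled to the sum of the other libraries it was 0.71 (adjusted p = 0.0071). The call was lost without WT BA library 2 (0.61, adjusted p = 0.057) or 3 (0.63, adjusted p = 0.056) and without WT vehicle library 1 (0.57, adjusted p = 0.068) or 2 (0.55, adjusted p = 0.068).

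ARR1, the type-B factor best known for restraining root meristem size, had 23.0, 29.6 and 28.7 RPKM in WT BA, against 39.0, 39.0 and 47.0 RPKM in WT vehicle. The groups did not overlap. The fall was −0.62 ± 0.16 (adjusted p = 0.0253), a level 0.653 times that with vehicle. The lowest was library 1, which had 26.6 RPKM once rescaled to the sum of the other libraries, and the difference was then −0.55 (adjusted p = 0.0295). Without both vehicle libraries numbered 3 it was −0.53 (adjusted p = 0.0086). The call was lost without WT BA library 1 (−0.50, adjusted p = 0.11) or 3 (−0.66, adjusted p = 0.052) and without WT vehicle library 3 alone (−0.53, adjusted p = 0.085).

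Some root markers were, like ARR1, lower with BA. Of the 8, 1 fell past the threshold in each genotype and 0 rose. Over all tested genes, 4.36% fell in bpc and 4.83% in WT. The 1 was SCR, a transcription factor of the endodermis and the stem cell niche. SCR had 16.7, 14.5 and 14.3 RPKM in bpc BA, against 24.3, 21.0 and 30.1 RPKM in bpc vehicle, and 14.9, 16.1 and 15.2 RPKM in WT BA, against 24.1, 22.9 and 30.7 RPKM in WT vehicle. It fell by −0.70 ± 0.14 in bpc (adjusted p = 0.0070) and by −0.72 ± 0.14 in WT (adjusted p = 0.0056). As for ARR1, the vehicle library numbered 3 was the highest of its group in both genotypes. SHR, which acts upstream of SCR, was lower in all BA libraries than in all vehicle libraries of its genotype, by −0.58 ± 0.19 in bpc and −0.56 ± 0.19 in WT, which did not pass (adjusted p = 0.098 and 0.11). Such groups did not overlap, in either direction, for 26.3% of all tested genes in bpc and 20.9% in WT. COBL9 went the other way in bpc, with 16.3, 15.1 and 16.0 RPKM with BA, against 12.4, 13.3 and 13.2 RPKM with vehicle. CASP1 and PYK10 overlapped between BA and vehicle in both genotypes. The median log2 difference of the 8 markers was −0.24 in bpc and −0.27 in WT, against 0.0017 in bpc and −0.05 in WT over all tested genes. The part of these markers' cells in the fall of ARR1 was not tested.

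ARR11, a less abundant type-B factor, had the largest BA difference of the 6 tested members. Its level was 1.63, 2.30 and 2.71 RPKM in WT BA, against 4.62, 5.03 and 3.74 RPKM in WT vehicle, with no overlap. The fall was −0.88 ± 0.17 (adjusted p = 0.00583), to 0.543 times the vehicle level. It rested on 39 to 63 reads per library with BA and 77 to 132 with vehicle. The call held under every alternative run, at −1.01 to −0.72.

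ARR2, which has been tied to ethylene as well as cytokinin signalling, had 11.4, 14.0 and 14.8 RPKM in WT BA, against 16.02, 18.02 and 19.8 RPKM in WT vehicle. The groups did not overlap, but the difference of −0.41 ± 0.13 did not pass (adjusted p = 0.0764, 95% interval −0.70 to −0.13). ARR10 had 26.4, 34.6 and 31.9 RPKM in WT BA, against 26.8, 29.9 and 28.8 RPKM in WT vehicle. These groups overlapped, with a difference of 0.11 ± 0.11 (95% interval −0.12 to 0.34). ARR14 had 1.71, 1.92 and 1.57 RPKM in WT BA, against 1.58, 1.099 and 1.84 RPKM in WT vehicle, on 18 to 35 reads per library, with a difference of 0.17 ± 0.18 (95% interval −0.23 to 0.57).

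In bpc roots, ARR1 and ARR11 fell with BA and no type-B gene rose past the threshold. Of the 6 tested members 2 passed, both down, where 8.59% of all tested genes passed, 4.24% up and 4.36% down. The BA and vehicle libraries of 4 of the 6 did not overlap, as for 26.3% of all tested genes. The members' median log2 difference was −0.36, against 0.0017 over all tested genes. ARR11 had 3.22, 2.72 and 2.23 RPKM in bpc BA, against 5.90, 6.48 and 6.01 RPKM in bpc vehicle. The groups were far apart, and the fall was −1.05 ± 0.17 (adjusted p = 0.00177), to 0.483 times the vehicle level. That call too held under every alternative run, at −1.16 to −0.94.

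ARR1 had 29.0, 26.7 and 26.6 RPKM in bpc BA, against 38.7, 34.4 and 53.8 RPKM in bpc vehicle, where library 3 stood well above the other 2. The fall was −0.59 ± 0.16 (adjusted p = 0.0319), and −0.41 (adjusted p = 0.0393) without the vehicle libraries numbered 3. The call was lost without bpc BA library 1, 2 or 3 (−0.63, −0.57 and −0.57), without bpc vehicle library 1 (−0.64) or 3 (−0.41), and with the 2 bpc groups alone (−0.59), at adjusted p of 0.057 to 0.11. ARR2 had 13.8, 13.3 and 13.8 RPKM in bpc BA, against 15.7, 17.2 and 20.7 RPKM in bpc vehicle, a difference of −0.37 ± 0.13 that did not pass (adjusted p = 0.122, 95% interval −0.66 to −0.09).

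ARR12 had 19.2, 18.3 and 17.3 RPKM in bpc BA, against 16.3, 14.3 and 19.9 RPKM in bpc vehicle. The groups overlapped, and the difference was 0.13 ± 0.15 (adjusted p = 0.735, 95% interval −0.20 to 0.45). ARR10 had 30.1, 32.8 and 32.3 RPKM in bpc BA, against 26.8, 26.4 and 29.0 RPKM in bpc vehicle. Its BA libraries were all above its vehicle libraries, by 0.21 ± 0.11, which did not pass (adjusted p = 0.355). ARR14 had 1.52, 1.30 and 1.13 RPKM in bpc BA, against 1.87, 2.13 and 1.45 RPKM in bpc vehicle, an overlapping difference of −0.34 ± 0.18 (95% interval −0.74 to 0.06).

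Between genotypes, 1 member differed past the limma threshold, and by that test with BA only. With vehicle, the authors' deposited edgeR table passed ARR12 and ARR11, as given below. With BA, ARR12 had 19.2, 18.3 and 17.3 RPKM in bpc, against 30.3, 34.1 and 33.2 RPKM in WT. The difference was −0.81 ± 0.15 (adjusted p = 0.0144), so that bpc held 0.569 times the WT level, and all 3 bpc libraries were below all 3 WT libraries. Of the 6 tested members this was the 1 called, where 2.32% of all tested genes were called, 1.03% as lower. That split, 268 higher and 213 lower, turned with the scaling, to 267 higher and 369 lower with WT BA library 1 rescaled, 215 higher and 407 lower with median-of-ratios scaling and 224 higher and 384 lower with quantile normalization. Without WT BA library 1 it was 90 higher and 189 lower. Groups did not overlap for 2 of the 6, ARR12 and ARR14, as for 25.6% of all tested genes. With WT BA library 1 rescaled the difference was −0.88 (adjusted p = 0.0074). The call was lost without any 1 bpc BA library or WT BA library 2 or 3, with differences of −0.85 to −0.78 and adjusted p of 0.052 to 0.072. This comparison shares its WT BA libraries with the BA response of WT given above. ARR14 had 1.52, 1.30 and 1.13 RPKM in bpc BA, against 1.71, 1.92 and 1.57 RPKM in WT BA, a difference of −0.30 ± 0.18 (adjusted p = 0.496). ARR1, ARR2, ARR10 and ARR11 overlapped between genotypes with BA, at log2 differences of 0.03, 0.03, 0.04 and 0.26.

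With vehicle, limma called 0 of the 6 tested members, where 1.99% of all tested genes were called. At an unadjusted p under 0.05 it was 1 member. The share of all tested genes at that unadjusted rule is not given here, so this count is not read as a result about the members. The labels do not say that a replicate number pairs libraries. With the number as a block all the same, and these 2 groups alone, the calls over all tested genes were 1271 in place of 414, with 0 members among them. The 414 were 189 higher and 225 lower, against 191 higher and 350 lower with quantile normalization. The member under an unadjusted 0.05 was ARR11, with 5.90, 6.48 and 6.01 RPKM in bpc, against 4.62, 5.03 and 3.74 RPKM in WT. This was the 1 member of 6 whose groups did not overlap with vehicle, where 16.7% of all tested genes did not, and bpc was higher by 0.43 ± 0.17 (adjusted p = 0.295, 95% interval 0.05 to 0.81). ARR12 had 16.3, 14.3 and 19.9 RPKM in bpc vehicle, against 18.5, 18.1 and 26.1 RPKM in WT vehicle, with each numbered bpc library below the WT library of the same number. Its difference was −0.30 ± 0.15 (adjusted p = 0.437, 95% interval −0.62 to 0.03). The 95% intervals for ARR1 (−0.34 to 0.34), ARR2 (−0.29 to 0.27) and ARR10 (−0.29 to 0.18) spanned 0.

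The change in response was tested directly as bpc response minus WT response. ARR12 had the most negative value, −0.52 ± 0.21 (95% interval −0.98 to −0.06, limma unadjusted p = 0.03, adjusted p = 0.9998). It was −0.59 with WT BA library 1 rescaled, −0.56 without both vehicle libraries numbered 3, and −0.69 to −0.39 with single libraries left out. ARR14 was next at −0.51 ± 0.26 (95% interval −1.08 to 0.05). The other 4 tested members lay between −0.17 and 0.10. At an unadjusted limma p under 0.05 it was 1 of 6, again without the share of all tested genes at that rule and so not read as a result. By adjusted p 0 of 6 passed, where 0.00481% of all tested genes, a single gene, passed. The ARR12 responses, 0.13 in bpc and 0.64 in WT, are therefore not shown to differ at this threshold.

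**Figure D2:**
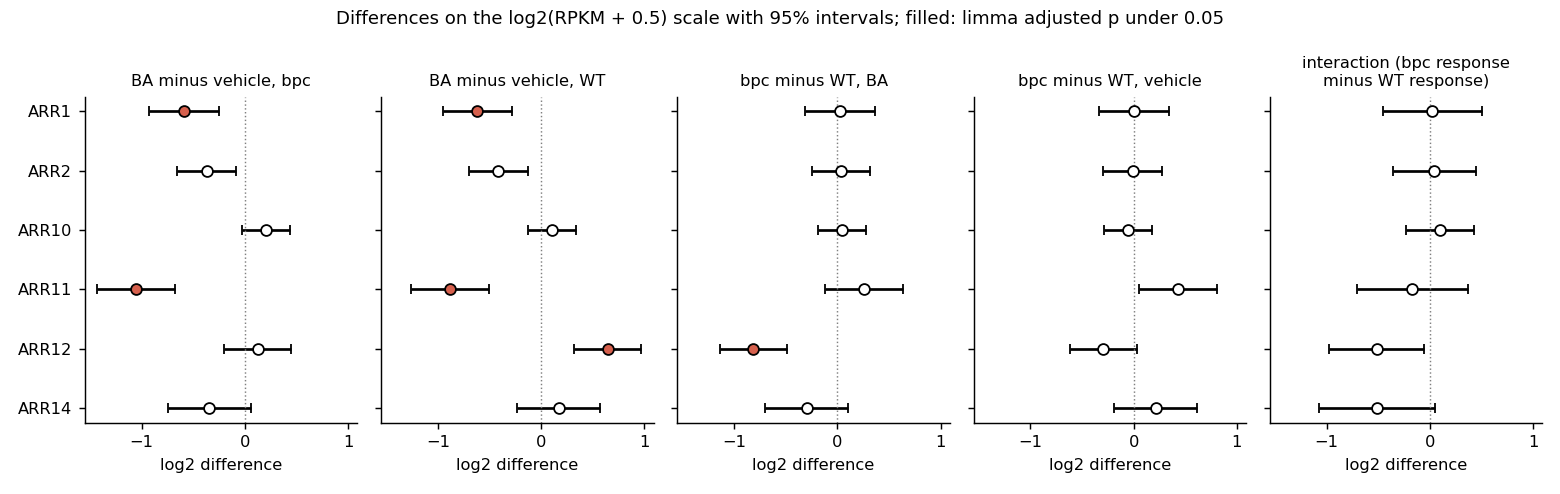
Log2 differences (x axis, log2(RPKM + 0.5) scale) of the 6 tested type-B genes in 5 comparisons, with 95% intervals from limma and filled points where the adjusted p was under 0.05. ARR11 and ARR1 lay left of 0 for BA in both genotypes, while ARR12 was filled for BA in WT at 0.64 and for bpc against WT with BA at −0.81.

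The authors' deposited tables, from an edgeR fit to counts, passed more members at an FDR under 0.05. For BA in bpc, where 23.8% of genes passed in the authors' deposited table, it gave ARR1 −0.62, ARR11 −1.15, ARR2 −0.39 and ARR10 0.21 past that FDR, and ARR12 0.13 at an FDR of 0.346. For BA in WT, where 18.8% of genes passed in the authors' deposited table, it gave ARR12 0.80, ARR1 −0.49, ARR11 −0.99 and ARR2 −0.32 past that FDR, and ARR10 0.19 at an FDR of 0.0874. For bpc against WT with vehicle, where 13.1% of genes passed in the authors' deposited table, it gave ARR12 −0.37 (FDR 0.000608) and ARR11 0.45 (FDR 0.0168). In sign the authors' deposited table matched the limma fit for the 6 members in the 2 BA comparisons. ARR18 was not among its 19706 genes, and a table of bpc against WT with BA or of the change in response was not used here.

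The 7 genes together summed to 97.1, 95.1 and 93.4 RPKM in bpc BA, 106, 101 and 131 in bpc vehicle, 94.5, 117 and 113 in WT BA and 107, 111 and 128 in WT vehicle. ARR12 made up 19.2% ± 0.634 of that sum in bpc BA, 14.9% ± 0.703 in bpc vehicle, 30.2% ± 1.57 in WT BA and 17.98% ± 2.17 in WT vehicle. ARR1 made up 28.8% ± 0.97 in bpc BA and 37.3% ± 3.54 in bpc vehicle, and 25.0% ± 0.587 in WT BA and 36.1% ± 0.937 in WT vehicle. A share within a library does not depend on its scale, so the read total used for WT BA library 1 leaves these values as they are. The shares of a library are tied to one another, so a share can rise without a rise in level. In bpc the ARR12 level itself did not pass with BA, at 0.13 ± 0.15 (limma adjusted p = 0.735). With BA, the most abundant type-B mRNA was ARR10 in bpc, at 31.7 ± 1.4 RPKM, ahead of ARR1 at 27.4 ± 1.37 with no overlap. In WT BA, ARR12 at 32.5 ± 2.01, ARR10 at 31.0 ± 4.2 and ARR1 at 27.1 ± 3.55 RPKM each overlapped with the next in order.

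**Figure D3:**
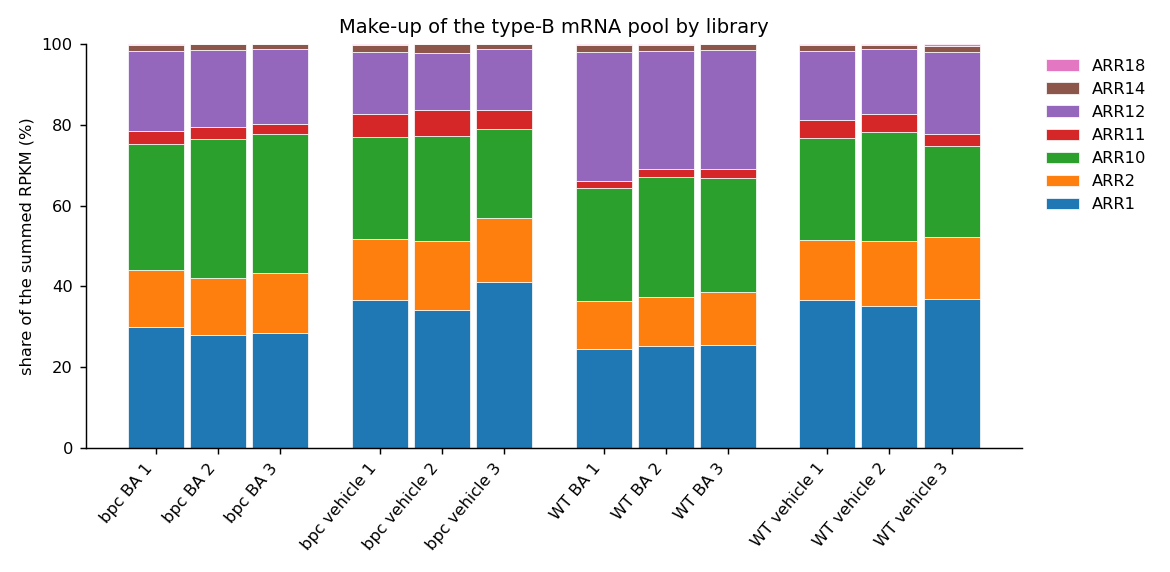
Share (y axis, percent) of each type-B gene in the summed RPKM of the 7 genes, for each of the 12 libraries. The ARR12 band is widest in the 3 WT BA libraries, at 29.2% to 32.0%, against 16.2% to 20.4% in WT vehicle, and the ARR1 band narrows with BA in both genotypes.

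The stretches just before the 3 genes that BA moved are shown because BPC proteins bind GA repeats. They are the 250 bases upstream of the annotated start on the gene's strand, from RefSeq's TAIR10.1 genome, with GAGAGA on either strand (GAGAGA or TCTCTC, overlapping matches allowed) in capitals. ARR12 lies at chr2:10727273-10727522 on the minus strand, ARR11 at chr1:25379218-25379467 on the minus strand and ARR1 at chr3:5755464-5755713 on the plus strand.
ARR12: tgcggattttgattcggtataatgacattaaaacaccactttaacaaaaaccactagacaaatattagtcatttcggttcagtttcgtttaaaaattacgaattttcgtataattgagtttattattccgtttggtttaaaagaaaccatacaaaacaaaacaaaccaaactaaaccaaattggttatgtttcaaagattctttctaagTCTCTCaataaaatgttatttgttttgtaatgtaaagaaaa
ARR11: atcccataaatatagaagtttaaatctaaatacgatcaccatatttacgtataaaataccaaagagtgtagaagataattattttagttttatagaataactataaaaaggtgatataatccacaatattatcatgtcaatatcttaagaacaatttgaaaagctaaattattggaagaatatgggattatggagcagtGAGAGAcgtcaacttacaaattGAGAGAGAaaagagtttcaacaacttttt
ARR1: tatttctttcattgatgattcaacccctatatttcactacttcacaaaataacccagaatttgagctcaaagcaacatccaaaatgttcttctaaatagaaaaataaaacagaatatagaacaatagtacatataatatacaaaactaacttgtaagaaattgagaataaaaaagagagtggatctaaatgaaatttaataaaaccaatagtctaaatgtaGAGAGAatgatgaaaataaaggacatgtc

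In these windows GAGAGA began 41 bases upstream of ARR12, 51, 29 and 27 bases upstream of ARR11 and 29 bases upstream of ARR1. Of the other members, ARR18 held 2 matches and ARR2, ARR10 and ARR14 held none. Among 27425 windows of the same size before protein-coding genes, 20.6% held it. AGATT (or AATCT), the core letters of type-B binding sites, was in the windows of ARR2, ARR11, ARR12, ARR14 and ARR18 and in 63.7% of all windows. A match is letters only, and no binding was measured.

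ARR1 spans 5755714 to 5759443 on chromosome 3 and shares its last part with AT3G16860 on the other strand over 69 bases, and ARR14 spans 332902 to 334760 on chromosome 2 and overlaps AT2G01770 on the other strand by 98 bases. The library kit keeps strand, but the labels do not say whether counting used it, and reads in those bases cannot be told apart. ARR2 (chromosome 4, 9112686 to 9116164), ARR10 (chromosome 4, 15444053 to 15447042), ARR11 (chromosome 1, 25376679 to 25379217), ARR12 (chromosome 2, 10724301 to 10727272) and ARR18 (chromosome 5, 23501605 to 23504169) overlap no other annotated gene.

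By pattern over the 12 libraries, the genes most like ARR12 were EEL (AT2G41070), AT5G23750 and AT5G60760, with Pearson r of 0.938, 0.934 and 0.933 on the log2 scale. For ARR11 they were AT5G39970, GT72B1 (AT4G01070) and MYR2 (AT3G04030), at 0.967, 0.964 and 0.962. For ARR1 they were PDE331 (AT2G01190), MYB61 (AT1G09540) and AT5G07322, at 0.978, 0.977 and 0.971. Each is the top of 20775 genes compared, over libraries that share their groups and scales, and is a description with no test.

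Upstream of the type-B proteins, AHK4 went the other way from AHK2 and AHK3 with BA in both genotypes, though not every difference passed. AHK4, the main root receptor, rose with BA by 1.11 ± 0.12 in bpc (adjusted p = 5.2e-05) and by 1.24 ± 0.12 in WT (adjusted p = 2.3e-05). AHK2 had 6.41, 7.68 and 7.34 RPKM in bpc BA, against 9.63, 10.9 and 8.63 RPKM in bpc vehicle, and 6.02, 6.87 and 6.38 RPKM in WT BA, against 10.6, 10.4 and 8.48 RPKM in WT vehicle. Its difference of −0.42 ± 0.13 did not pass in bpc (adjusted p = 0.0647), and it fell in WT by −0.57 ± 0.13 (adjusted p = 0.0121). AHK3 likewise differed by −0.38 ± 0.13 in bpc (adjusted p = 0.102) and fell in WT by −0.54 ± 0.13 (adjusted p = 0.0162). In both genotypes every BA library of AHK2 and of AHK3 was below every vehicle library. BA and vehicle libraries did not overlap, in either direction, for 26.3% of all tested genes in bpc and 20.9% in WT. The authors' deposited table passed both in bpc, AHK2 at −0.45 (FDR 1.8e-05) and AHK3 at −0.39 (FDR 0.00013). By limma 0 of the 3 receptors passed for the change in response, at −0.13 to 0.17, where 0.00481% of all tested genes passed. The WT calls were lost without WT vehicle library 2 (−0.53 for AHK2, −0.51 for AHK3), that of AHK2 also without WT vehicle library 1 (−0.52), and that of AHK3 with the 2 WT groups alone.

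Of 6 phosphotransfer genes, 5 were tested. In bpc 2 rose and 0 fell with BA, where 8.59% of all tested genes passed, and in WT 2 rose and 1 fell, where 8.68% passed. AHP1, which carries phosphate from receptor to regulator, rose by 0.88 ± 0.18 in bpc (adjusted p = 0.00668) and by 0.81 ± 0.18 in WT (adjusted p = 0.0116). AHP3 rose by 0.64 ± 0.15 in bpc (adjusted p = 0.0176) and by 0.71 ± 0.15 in WT (adjusted p = 0.00909). AHP6, a pseudo-phosphotransfer protein that blocks the relay, fell by 0.83 ± 0.23 in WT (adjusted p = 0.0454), a call lost under 13 of the alternatives (−0.85 to −0.67), and its difference of −0.78 ± 0.23 in bpc did not pass. The AHP1 call in WT was lost without WT BA library 3 (0.76) or WT vehicle library 2 (0.72). The AHP3 call in bpc was lost with the 2 bpc groups alone (0.64) and without bpc BA library 2 (0.59) or 3 (0.66) or bpc vehicle library 1 (0.65).

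The KMD genes encode F-box proteins that mark type-B proteins for breakdown, and 3 of 4 were tested, KMD3 being listed at 0. KMD4 had 7.40, 7.48 and 5.37 RPKM in bpc BA, against 11.7, 11.8 and 12.4 RPKM in bpc vehicle, and 4.79, 4.46 and 4.70 RPKM in WT BA, against 6.94, 7.13 and 9.94 RPKM in WT vehicle. It fell in both, by −0.80 ± 0.15 in bpc (adjusted p = 0.00466) and by −0.71 ± 0.15 in WT (adjusted p = 0.00983). KMD1 had 21.6, 24.3 and 17.7 RPKM in bpc BA, against 31.2, 31.1 and 25.5 RPKM in bpc vehicle, and 23.1, 26.8 and 29.3 RPKM in WT BA, against 48.8, 45.2 and 45.3 RPKM in WT vehicle. It fell with BA by −0.46 ± 0.13 in bpc (adjusted p = 0.04997) and by −0.81 ± 0.13 in WT (adjusted p = 0.00161), and was lower in bpc with vehicle by −0.66 ± 0.13 (adjusted p = 0.0237). The bpc BA call was lost under 13 of the alternatives (−0.48 to −0.34). The vehicle call was lost with the 2 vehicle groups alone (−0.66), without both vehicle libraries numbered 3 (−0.58) and without any 1 vehicle library except WT vehicle library 3 (−0.71 to −0.57). The BA response of KMD1 in WT and its vehicle comparison share the WT vehicle libraries.

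The other tested KMD genes lay on the opposite side of WT from KMD1 with vehicle. KMD2 had 75.2, 76.1 and 85.2 RPKM in bpc vehicle, against 56.0, 60.9 and 42.1 RPKM in WT vehicle, a difference of 0.58 ± 0.17 that did not pass (adjusted p = 0.125). KMD4 likewise differed by 0.57 ± 0.15 (adjusted p = 0.084). Neither gene's groups overlapped, as for 16.7% of all tested genes in this comparison. Of the 3 tested KMD genes 1 was called lower and 0 higher, where 1.99% of all tested genes were called, and their median was 0.57, against 0.04 over all tested genes. The authors' deposited table passed both as higher in bpc, KMD2 by 0.59 (FDR 0.0102) and KMD4 by 0.55 (FDR 0.000812). With BA, KMD2 had 82.8, 90.3 and 88.8 RPKM in bpc, against 45.8, 46.8 and 72.8 RPKM in WT, a difference of 0.69 ± 0.17 (adjusted p = 0.061), and its response to BA did not pass in bpc (0.15) or in WT (0.04).

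Downstream, all 10 type-A regulators rose with BA in both genotypes, by 1.36 to 4.83 in bpc and 1.49 to 5.31 in WT. Over all tested genes, 4.24% rose in bpc and 3.85% in WT. Those with the smallest p in both were ARR3 (3.89 in bpc and 3.39 in WT), ARR16 (4.83 in bpc and 5.31 in WT) and ARR6 (3.04 in bpc and 3.27 in WT), all feedback repressors of the relay, with ARR17 next in bpc (4.75) and ARR15 in WT (4.47). The summed level of the 10 was 853 to 909 RPKM in bpc BA, against 115 to 122 in bpc vehicle, and 793 to 952 RPKM in WT BA, against 87.0 to 129 in WT vehicle. By limma, 0 of the 10 passed for the change in response, where 0.00481% of all tested genes passed. That count is therefore not read as a result about these genes. Their median change was −0.15, against 0.05 over all tested genes and −0.02 over them with WT BA library 1 rescaled. At an unadjusted p under 0.05 the count was 1 of the 10. It is given without the share of all tested genes at that rule and so is not read as a result. Among DELLA genes, whose proteins bind type-B regulators, RGL2 rose by 0.83 ± 0.13 in bpc (adjusted p = 0.00104) and by 0.79 ± 0.13 in WT (adjusted p = 0.00145). RGL3 differed by −0.05 ± 0.18 in bpc and fell in WT by −0.71 ± 0.18 (adjusted p = 0.0241), a call lost without WT BA library 1 or 2 or WT vehicle library 1 or 2 (−0.74 to −0.62). None of the other 3 passed in either genotype by limma, where 8.59% of all tested genes passed in bpc and 8.68% in WT. The BA calls of AHK4 (1.06 to 1.18 in bpc, 1.16 to 1.34 in WT), KMD4 (−0.87 to −0.65 in bpc, −0.79 to −0.55 in WT), RGL2 (0.75 to 0.90 in bpc, 0.71 to 0.87 in WT) and the 10 type-A genes held under every alternative run.

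**Figure D4:**
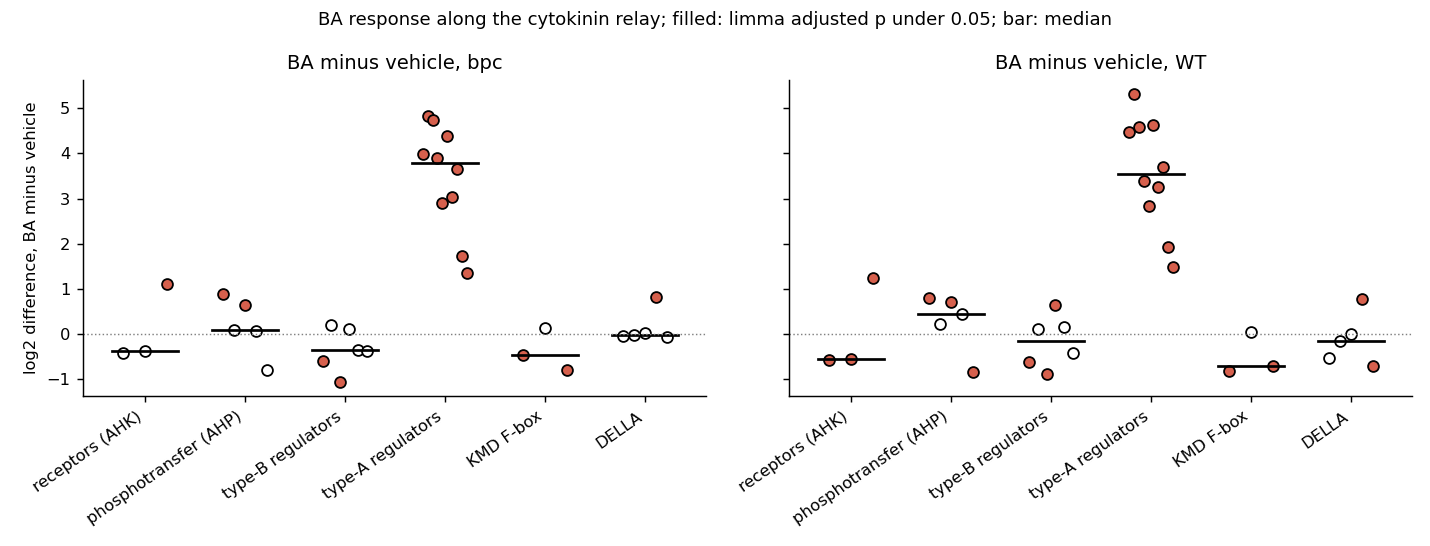
Log2 difference, BA minus vehicle (y axis), of single genes (points) in 6 groups of the cytokinin relay, in bpc and in WT, filled where the limma adjusted p was under 0.05, with bars for medians. Type-A regulators lay at 1.36 to 5.31, and type-B regulators between −1.05 and 0.64.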

How the data were processed

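RNA from 12 libraries of seedling roots was sequenced, 3 in each of 4 groups. The authors' deposited table gives RPKM for 33602 genes. Per the submitters' processing notes the tools included edgeR 3.0, featureCounts, SAMtools 0.1.18, TopHat2 2.0.11 with Bowtie 1.1.0, and FastQC, and the build was TAIR 10. Per the file headers, the authors' deposited edgeR tables hold log2 fold changes and mean log2 CPM, a likelihood-ratio score, and p-values with FDR. Their bpc against WT table was read as bpc over WT, since the BPC1, BPC2 and BPC6 values are negative in it.

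RPKM values are not counts, so limma 3.58.1 in R 4.3.3 was fitted to log2(RPKM + 0.5) with an intensity trend and 1 coefficient per group, for 20776 genes at 0.5 RPKM or more in at least 3 libraries. It has 8 residual degrees of freedom and tests 5 contrasts, with Benjamini-Hochberg adjustment at 0.05 and 95% intervals. The code was tested on simulated data. Read totals and members' reads were recovered from RPKM steps, with every member value whole within 0.01 reads. Alternatives were other pseudocounts, filters and scalings, no trend, a replicate block, fewer groups and each library left out. Those without the vehicle libraries numbered 3, with WT BA library 1 rescaled together with a block, and with the vehicle groups blocked were added after the data were seen.

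Members and lists were chosen with earlier results of these data known. Text names all members, up to 4 genes of each relay list that passed with the smallest p in a contrast, and the 3 genes most alike to each member that BA moved. Same-numbered libraries of the 2 vehicle groups deviated together (r of 0.31, 0.37 and 0.63), while no other pair of groups had all 3 above 0.1. Numbers 1 and 2 also did so across numbers, with r of 0.34 for bpc 2 with WT 1 and 0.19 for bpc 1 with WT 2. The labels do not say that the number pairs libraries. Sequences come from RefSeq's TAIR10.1 genome, and all 7 members matched by locus.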

Additional observations from a re-analysis of the deposited data

How the results depend on the processing

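Of 715 member values under alternatives, 693 stayed on the same side of the threshold, 18 lost a call, 4 gained one and 0 reversed. Most of these values had no call in the main fit to lose, so the 693 overstates how firm the calls are. The 18 losses were all of ARR1 and ARR12. For BA in WT, ARR1 lost its call in 3 of 24 alternatives and ARR12 in 4 of 24. ARR1 lost it in 6 of 24 for BA in bpc, and ARR12 in 5 of 24 for bpc against WT with BA. Members called for BA in WT numbered 1 to 4 when single libraries were left out. For BA in bpc they numbered 1 with the 2 groups alone and 1 to 2 with libraries left out, and for bpc against WT with BA 0 to 1. ARR2 gained a call in WT with the replicate block (−0.41, adjusted p = 0.031), without bpc vehicle library 3 (adjusted p = 0.043) and with library 1 of WT BA rescaled plus the block (−0.35, adjusted p = 0.037), and that last setting also called it in bpc (−0.37, adjusted p = 0.026). ARR14 gave no value at a 2 RPKM minimum, and the interaction cannot be fitted with only 2 groups.

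Over all genes, calls for BA in bpc were 1175 to 2058 with single libraries left out. For bpc against WT with vehicle they were 85 with the 2 groups alone and 173 to 421 with libraries left out. They were 649 with WT BA library 1 rescaled and a replicate block, and 1271 with the 2 vehicle groups alone and a block. For bpc against WT with BA they were 1032 with the 2 groups alone, 172 to 634 with libraries left out, 1291 without the vehicle libraries numbered 3 and 724 rescaled with a block. For the interaction they were 2 at pseudocount 0.1, 0 at 1, 4 unfiltered, 0 at 2 RPKM, 2 without the trend, 0 to 1 with libraries left out, 2 without the vehicle libraries numbered 3 and 0 rescaled with a block. The cause was not tested. The replicate block over all 4 groups gave 2020 calls for BA in WT (4 members), 1957 in bpc (2 members), 491 with vehicle (0 members), 544 with BA (1 member) and 1 for the interaction (0 members), and changed no other member's call. With the 2 vehicle groups alone and a block, ARR11 was 0.43 (adjusted p = 0.091) and ARR12 −0.30 (adjusted p = 0.079). ARR14, at 15 to 35 reads per library, and ARR18, at 1 to 12, limit what could be detected.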

Other observations

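Reported type-B targets outside the type-A family were listed as 7 genes, of which 6 were tested and WUS was listed at 0. By limma 2 rose and 1 fell with BA in each genotype, where 8.59% of all tested genes passed in bpc and 8.68% in WT. CCS52A1, EXPA1 and LAX2 passed in neither. The median log2 difference of the 6 was −0.09 in bpc and −0.05 in WT, against 0.0017 in bpc and −0.05 in WT over all tested genes. IAA3, an auxin-response repressor, had 43.5, 47.0 and 44.6 RPKM in bpc BA, against 8.99, 11.1 and 7.60 RPKM in bpc vehicle, and 37.0, 48.8 and 49.7 RPKM in WT BA, against 9.37, 10.6 and 9.20 RPKM in WT vehicle. It rose by 2.24 ± 0.14 in bpc (limma adjusted p = 7.7e-07) and by 2.15 ± 0.14 in WT (adjusted p = 9.0e-07). GH3.17, which joins auxin to amino acids, rose by 0.89 ± 0.14 in bpc and by 0.74 ± 0.14 in WT (limma adjusted p = 0.00095 and 0.0034). TAA1, an auxin synthesis enzyme, fell by 0.84 ± 0.13 in bpc and by 0.63 ± 0.13 in WT (limma adjusted p = 0.0014 and 0.0091). These 3 genes' BA calls held under every alternative run, at 2.12 to 2.38 in bpc and 2.08 to 2.29 in WT for IAA3, 0.84 to 0.94 in bpc and 0.57 to 0.88 in WT for GH3.17, and −0.96 to −0.70 in bpc and −0.70 to −0.56 in WT for TAA1. By limma 0 of the 6 passed between genotypes with vehicle, with BA or in response. Over all tested genes 1.99%, 2.32% and 0.00481% passed in these comparisons, so 0 of 6 is not read as a result about these genes. At an unadjusted p under 0.05 the counts were 1, 1 and 0. They are given without the share of all tested genes at that rule and so are not read as results.

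GA repeats were also counted in the first 600 transcribed bases of each gene, a window chosen after the upstream windows were seen. ARR12 held 22 starts of GAGAGA on either strand, and 0.183% of 25690 genes held as many or more. Overlapping matches were counted, so 1 long run gives many starts, and the share is a description with no test. ARR10 and ARR11 held 5, ARR1 held 4, ARR2 held 3, and ARR14 and ARR18 held 1. The longest run in ARR12 covers 34 bases in an intron, at chr2:10726797-10726830 in TAIR10.1, 443 to 476 bases from the gene's start. No binding was measured.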
